A study of Mus musculus with 16 samples.

Results

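The genes that turn a stromal cell into a fat cell, and that fill it with lipid, were followed in bone marrow stromal cells of sickle mice. The group held 42 named genes, taken by symbol from a count table of 52459 genes, and each of the 42 had a row there. The cells were sorted from digested marrow as live single cells that carried CD51 and CD140a and lacked the blood cell antigens CD45 and Ter119 and the vessel antigen CD31. RNA was sequenced from 4 SS and 4 SA mice, with 1 library per mouse on 2 lanes. Both genotypes are Townes sickle mice and carry human alpha globin in place of the mouse gene. SS mice are homozygous for an allele with human Aγ-globin and sickle beta globin (βS) that replaces the mouse major and minor beta globins. SA mice, the controls, have 1 βS copy and 1 copy of normal human beta globin (βA), so the comparison is between sickle disease and carriers of the trait. The sources used here give neither age nor sex, and the mutations are in the germ line, so that any cell of the mouse carries them.

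Fat cell formation is driven by the nuclear receptor PPARγ and the C/EBP factors, which switch on one another and then the genes for lipid uptake, synthesis and storage. Marrow stromal cells that carry the leptin receptor make adiponectin and lipoprotein lipase without holding fat droplets, and they are a source of marrow adipocytes. A mature adipocyte adds the droplet proteins perilipin 1 and CIDEC and secretes leptin and adipsin. The comparison between genotypes sets these genes in sickle disease against the same genes in carriers of the trait.

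Total counts per library ran from 24797857 to 31117007. Levels are given as CPM, which are counts per 1e6 counts of the TMM-scaled library total, and 1 count was worth 0.0322 to 0.0376 CPM. The sorted antigen genes were read in every library, with Pdgfra (CD140a) at 169 to 481 CPM and Itgav (CD51) at 252 to 820 CPM. The markers of adipogenic marrow stroma were abundant, with the chemokine gene Cxcl12 at 10504 to 23454 CPM and the leptin receptor gene Lepr at 1099 to 2783 CPM. Genes of gated-out cells were also present, with Pecam1, which encodes CD31, at 0.833 to 44.9 CPM. The summed level of 15 leukocyte genes was 4189, 4788, 1482 and 776 CPM in SA replicates 1 to 4 and 2836, 431, 1171 and 352 CPM in SS replicates 1 to 4, so that SA replicates 1 and 2 and SS replicate 1 stood above the rest (SS against SA, exact permutation p = 0.200, adjusted p = 0.457 over 12 marker lists). Ptprc, which encodes CD45, was at 499 to 748 CPM in those 3 libraries. Xist stood at 2076 CPM in SS replicate 2, against 14.8 CPM or less elsewhere, with Ddx3y at 0.434 CPM there and at 79.3 CPM or more in the others, so that SS replicate 2 reads as female. In SS replicate 4, the title of 1 lane reads SS while its source and mouse group read SA. Date-like numbers in the titles fall into 3 sets, 1 holding every SA library, and cannot be told apart from genotype. Of the other sets, 1 holds SS replicates 1, 3 and 4, and 1 holds SS replicate 2 alone. Within SS, the set and the female reading of replicate 2 cannot be told apart. Because these are bulk samples, fewer cells of a type and less RNA per cell cannot be told apart.

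The stroma of both genotypes read strongly in a few adipogenic genes. To compare genes with each other, CPM was divided by exon length in kilobases. This length covers every annotated exon of a gene, from all its transcripts, so that the order depends on the annotation. In undivided CPM the highest median was that of Lpl, at 1512 CPM with 10478 exon bases. Per kb the median over 8 libraries was highest for Esm1, a secreted proteoglycan first described in endothelial cells, at 355 CPM per kb (range 217 to 541). Adipoq, which encodes the hormone adiponectin, was at 341 CPM per kb (123 to 418). Apoe, the lipid carrier apolipoprotein E, had a median of 213 CPM per kb (142 to 314). Gdpd2, a glycerophosphodiester phosphodiesterase, stood at 172 CPM per kb (108 to 310). Lpl, the lipase that frees fatty acids from lipoproteins, came next at 144 CPM per kb (57.3 to 324). The ranges of these 5 genes overlap one another. The following gene, the fatty acid desaturase Scd1, was at 28.4 CPM per kb (13.5 to 54.0), below the lowest library of each of the 5.

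The factors of the programme lay close together. Cebpd, Cebpa, Cebpb and Pparg had medians of 20.7, 20.4, 19.8 and 19.3 CPM per kb, and their ranges overlapped. Genes of the lipid-filled adipocyte were near or at 0 instead. Lep, the satiety hormone leptin, and Cidea, a droplet protein of brown fat, had 0 counts in all 8 libraries, where 3 counts would be 0.0967 to 0.113 CPM. Cfd, which encodes adipsin, had 12 counts in SS replicate 3, 4 in SS replicate 4 and 0 in the other 6 libraries. Pck1, an enzyme that feeds glycerol synthesis, had 1 count in 1 library, and Retn, which encodes resistin, had at most 24 counts in any library. Plin1 and Cidec, which coat and enlarge fat droplets, were read in 2 libraries and 1 library respectively and are described with SS replicate 4.

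**Figure D1:**
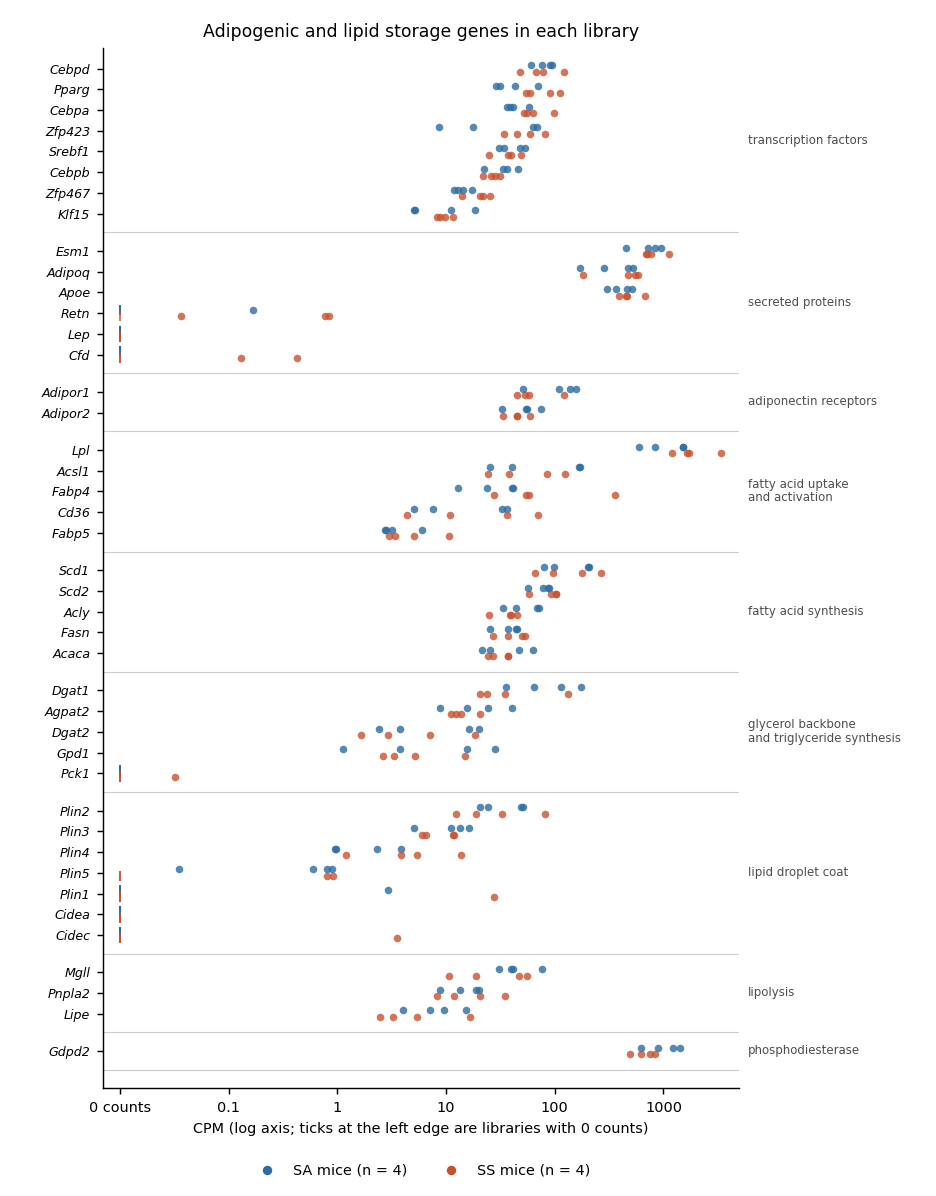
Each row is a gene, grouped by role, and each point is the CPM of 1 mouse library on a log axis, blue for SA and red for SS (4 mice each). Marks at the left edge are libraries with 0 counts, which include all 8 libraries for Lep and Cidea, while Lpl, Esm1, Gdpd2, Adipoq and Apoe lie at the right.

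The promoters of a few of these genes are shown because C/EBP factors act on the adipogenic programme through a short element that can be read off the sequence. RefSeq promoter windows on GRCm38.p6, from 250 bases before to 50 after a start, were found for 32 of the 42 genes (46 windows). The C/EBP element TTGCNNAA, searched on both strands, was in windows of 6 genes, namely Cidec, Gdpd2, Lep, Plin1, Pparg and Zfp423. That is 13.0% of the 46 windows, against 10.8% of all 32851 windows of that length. The PPARγ element, a direct repeat spelled AGGTCANAGGTCA, was in none of the 46 windows and in 0.0396% of all windows. A single copy of its repeat, AGGTCA, was in 17.4% of the 46 windows against 16.3% of all, and the TATA box letters TATAAA in 10.9% against 13.6%. A match is a match of letters and was not tested as a binding site. Of the 4 windows printed here, with the C/EBP element in capitals, those of Gdpd2 and Pparg belong to genes read in all 8 libraries, and those of Lep and Plin1 to genes at 0 in 8 and 6 libraries.
Gdpd2, chrX:100729597-100729896, plus strand: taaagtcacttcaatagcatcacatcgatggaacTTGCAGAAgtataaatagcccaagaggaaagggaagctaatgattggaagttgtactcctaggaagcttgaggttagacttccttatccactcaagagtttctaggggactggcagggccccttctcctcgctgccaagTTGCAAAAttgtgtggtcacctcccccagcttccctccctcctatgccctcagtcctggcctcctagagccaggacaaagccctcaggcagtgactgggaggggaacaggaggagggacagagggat
Pparg, chr6:115421816-115422115, plus strand: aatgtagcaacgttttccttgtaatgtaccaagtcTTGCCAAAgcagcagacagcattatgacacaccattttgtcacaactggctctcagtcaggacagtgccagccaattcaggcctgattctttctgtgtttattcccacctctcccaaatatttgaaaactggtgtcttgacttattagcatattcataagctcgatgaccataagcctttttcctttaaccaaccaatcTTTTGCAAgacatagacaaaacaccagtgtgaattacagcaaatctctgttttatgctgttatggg
Lep, chr6:29059971-29060270, plus strand: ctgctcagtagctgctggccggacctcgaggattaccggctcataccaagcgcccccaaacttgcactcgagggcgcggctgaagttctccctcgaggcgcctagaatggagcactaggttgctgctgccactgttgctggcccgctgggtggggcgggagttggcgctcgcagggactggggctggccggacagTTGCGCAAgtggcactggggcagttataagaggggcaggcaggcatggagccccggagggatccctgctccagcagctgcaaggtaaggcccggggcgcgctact
Plin1, chr7:79732727-79733026, minus strand: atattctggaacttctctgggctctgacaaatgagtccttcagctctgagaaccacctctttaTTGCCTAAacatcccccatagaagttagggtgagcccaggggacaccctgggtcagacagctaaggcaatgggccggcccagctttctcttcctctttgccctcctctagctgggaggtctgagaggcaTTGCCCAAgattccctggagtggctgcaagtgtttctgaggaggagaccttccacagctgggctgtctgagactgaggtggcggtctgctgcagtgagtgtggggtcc
The Pparg window is the most downstream of 3 for that gene, and gene counts do not separate transcripts by start. In the Lep window the element reads the same on both strands and lies 55 bases before the start.

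Between genotypes, no gene of the group passed the test. The edgeR quasi-likelihood test with Benjamini-Hochberg adjustment over 17316 genes kept after a low-count filter called 0 genes at an adjusted p under 0.05 (0.0%), and 35 of the 42 genes were among those tested. DESeq2 called 128 genes (0.739%) and none of the 35, and limma-voom called 0 of all genes. At an unadjusted p under 0.05, 4 of the 35 stood out by edgeR, or 11.4%, against 6.98% of all genes tested. These were Pparg, Cebpa and Fabp4, with higher means in SS, and Gdpd2, with a lower one, where 4.03% and 2.96% of all genes did so in these directions. That count was 2 without SA replicate 1, 2 or 3 or SS replicate 2, and 1 without SS replicate 4. With the mean log2 CPM of the 15 leukocyte genes as a covariate (the leukocyte covariate) it was 1 as well. The covariate is in part tied to genotype, at 5.13 to 7.58 in SA and 3.81 to 6.82 in SS. With no low-count filter that number was 7 of the 40 genes that had a count, against 9.97% of 31321 genes. The further 3 were Lpl, Cidec and Cfd, where Cidec had counts in only 1 library and Cfd in only 2, all of them SS. Log2 fold changes of SS over SA were above 0 for 17 of the 35 (48.6%, against 49% of all genes), with a median of -0.036 beside -0.014 for all genes. The genotypes overlapped for each of the 35, while 3.91% of all genes tested had no overlap. Fold changes below are from edgeR, with a standard error (SE), and adjusted p-values from that test.

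**Figure D2:**
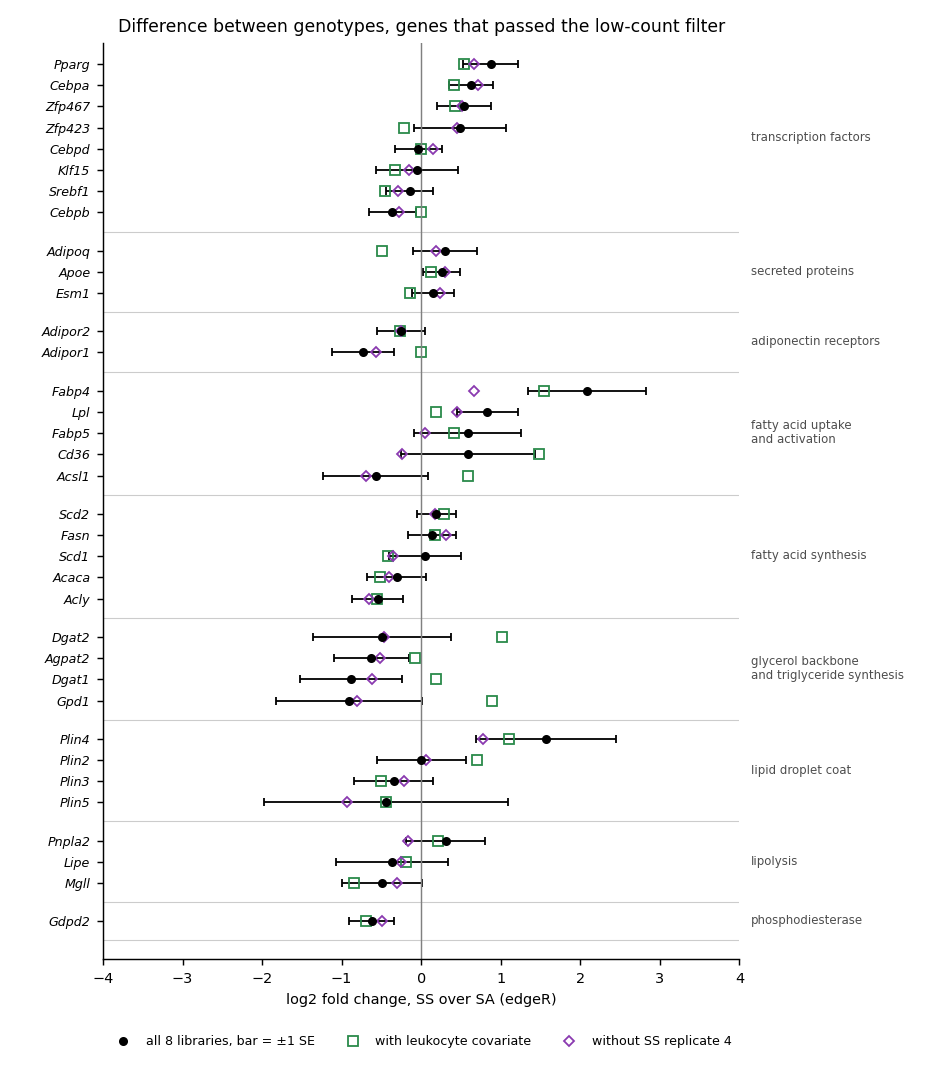
Log2 fold change of SS over SA for the 35 genes tested, grouped by role, with black points and bars for the edgeR value and its SE in 8 libraries. Open squares show the value with leukocyte level as a covariate and open diamonds the value without SS replicate 4, which took Fabp4 from 2.08 to 0.67.

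Among the transcription factors, the central pair had higher means in SS. Pparg, which encodes PPARγ (chromosome 6, 115360951 to 115490399, plus strand of GRCm38 in the GENCODE M21 annotation), was at 31.2, 43.6, 28.6 and 69.9 CPM in SA replicates 1 to 4 and at 54.8, 59.0, 90.9 and 112 CPM in SS replicates 1 to 4. Only SA replicate 4 reached into the SS range. The log2 fold change was 0.87 (SE 0.35, adjusted p = 0.695), and leaving out 1 mouse at a time gave 0.66 to 1.21. Cebpa, the C/EBP factor that keeps PPARγ on, was at 38.7, 36.2, 58.5 and 41.6 CPM in SA and at 62.8, 99.2, 52.1 and 55.5 CPM in SS. SA replicate 3 lay above 2 SS libraries, and SS replicate 2 was the highest. Its log2 fold change was 0.62 (SE 0.28, adjusted p = 0.707), with 0.38 without SS replicate 2. The summed leukocyte level was higher in SA replicates 1 to 3 than in SS replicates 2 to 4, and with the leukocyte covariate the values were 0.54 for Pparg and 0.41 for Cebpa.

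Of the early C/EBP factors, Cebpd differed between genotypes by less than the spread between mice. Cebpb differed by less than the standard deviation (SD) of SA mice but by more than that of SS mice. Cebpb, which with Cebpd starts the cascade, was at 34.6 ± 9.77 CPM (SD, n = 4) in SA and 26.9 ± 3.90 CPM in SS, and Cebpd at 80.7 ± 15.3 and 78.7 ± 31.5 CPM. Log2 fold changes were -0.36 (SE 0.30) and -0.036 (SE 0.29), and the 562 exon bases that Cebpd shares with Spidr on the opposite strand, like 312 of Cebpb with Tmem189, make these counts uncertain. With the leukocyte covariate the value for Cebpb was -0.0084. Zfp467, a zinc finger protein that favours fat over bone in stromal cells, was at 14.1 ± 2.35 CPM in SA mice and 20.4 ± 4.81 CPM in SS (0.54, SE 0.34). Zfp423, which commits preadipocytes, was at 17.8, 8.61, 68.0 and 62.7 CPM in SA mice and 33.9, 81.7, 44.9 and 59.3 CPM in SS (0.48, SE 0.58). Its 3 lowest libraries were the 3 with the most leukocyte transcripts. Klf15 and Srebf1, regulators of late adipogenesis and of lipogenesis, had log2 fold changes of -0.053 (SE 0.52) and -0.14 (SE 0.30). The lowest adjusted p-value of these 6 was 0.766, for Zfp467.

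The secreted products that were read well also differed by less than the spread between mice. Adipoq was at 283, 170, 523 and 469 CPM in SA replicates 1 to 4 and at 183, 578, 474 and 543 CPM in SS replicates 1 to 4. Within each genotype the leukocyte-rich libraries were the low ones, and the remaining 5 lay between 469 and 578 CPM. The log2 fold change was 0.30 (SE 0.41, adjusted p = 0.907), and -0.50 with the leukocyte covariate. Esm1 was at 725, 456, 835 and 953 CPM in SA and at 710, 1135, 762 and 687 CPM in SS (0.15, SE 0.26, adjusted p = 0.934). Its genotypes overlapped widely, with SS replicate 2 apart at the top, and without that library the value was -0.043. Apoe was at 412 ± 93.7 CPM in SA mice and 493 ± 122 CPM in SS (0.26, SE 0.23, adjusted p = 0.836). The receptors for adiponectin had lower means in SS: Adipor1 was at 115 ± 46.8 and 69.1 ± 34.8 CPM (-0.73, SE 0.40, adjusted p = 0.750) and Adipor2 at 54.4 ± 17.4 and 45.6 ± 10.6 CPM (-0.26, SE 0.30, adjusted p = 0.884). With the leukocyte covariate the values were -0.0057 for Adipor1 and -0.27 for Adipor2. Without the 3 leukocyte-rich libraries they were -0.64 for Adipor1 and -0.66 for Adipor2.

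Gdpd2 had the opposite sign from Pparg. It was at 889, 618, 1234 and 1429 CPM in SA and at 748, 620, 841 and 496 CPM in SS. SA replicates 1, 3 and 4 were above every SS library, and SA replicate 2 lay within the SS range. The log2 fold change was -0.62 (SE 0.28, adjusted p = 0.710), was -0.81 to -0.43 as each mouse in turn was left out, and -0.69 with the leukocyte covariate. Its exons overlap 799 bases of Gm14866 on the opposite strand, a gene at 3.26 to 14.2 CPM. Gdpd2 lies on chromosome X, from 100729873 to 100738895 on the plus strand.

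Fabp4, a gene of fatty acid uptake, had the largest fold change of the 35 genes tested, and 1 library carried most of it. This gene of the adipocyte fatty acid carrier (chromosome 3, 10204088 to 10208576, minus strand) was at 40.3, 41.1, 13.0 and 23.7 CPM in SA and at 57.9, 27.9, 54.4 and 359 CPM in SS. SS replicate 4 was 6.20 times the next library. SS replicates 1 and 3 were also above every SA library, and SS replicate 2 lay within the SA range. The log2 fold change was 2.08 (SE 0.74, adjusted p = 0.695), and 0.67 without SS replicate 4. Lpl was at 842, 600, 1498 and 1526 CPM in SA and at 1193, 1726, 1633 and 3393 CPM in SS. Again SS replicate 4 was the highest, at 1.97 times the next library, and SS replicate 1 lay within the SA range. The log2 fold change was 0.83 (SE 0.38, adjusted p = 0.716), 0.45 without SS replicate 4 and 0.19 with the leukocyte covariate.

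The fatty acid transporter Cd36 was high in libraries of both genotypes. It was at 36.3, 32.7, 7.66 and 5.04 CPM in SA and at 36.3, 4.42, 10.8 and 70.8 CPM in SS. The 3 leukocyte-rich libraries and SS replicate 4 were high and the other 4 low, so that the log2 fold change of 0.58 (SE 0.84) turned to -0.25 without SS replicate 4. Fabp5, a related carrier, was at 2.74 to 10.7 CPM, with its maximum in SS replicate 4 (0.59, SE 0.67, and 0.054 without that library). It is uncertain because 8.67% of its 31-base words also occur in other genes, chiefly unnamed models such as Gm6166. Acsl1, which activates fatty acids, was at 173, 166, 25.3 and 40.6 CPM in SA and at 125, 24.1, 37.6 and 85.5 CPM in SS. Its log2 fold change was -0.57 (SE 0.66) and turned to 0.59 with the leukocyte covariate. The 3 leukocyte-rich libraries and SS replicate 4 were also the 4 highest for Acsl1, Dgat2 and Plin2.

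Enzymes of fatty acid synthesis had smaller fold changes, though that of Acly was close in size to those of Cd36, Fabp5 and Acsl1. Acly, which makes cytosolic acetyl-CoA, was at 54.4 ± 18.8 CPM in SA mice and 37.2 ± 8.70 CPM in SS (-0.55, SE 0.32, adjusted p = 0.754). Acaca, acetyl-CoA carboxylase, had a log2 fold change of -0.31 (SE 0.37), although 56.8% of the 31-base words of its longest transcript also occur in Gm5182, which leaves its count uncertain. Fasn, fatty acid synthase, was at 37.9 ± 8.96 and 41.8 ± 12.2 CPM (0.14, SE 0.30). Scd1 was at 98.2, 79.1, 206 and 203 CPM in SA and at 97.2, 66.0, 179 and 264 CPM in SS (0.048, SE 0.45), so that each genotype held a low and a high pair. Its neighbour Scd2 was steadier, at 77.8 ± 14.8 and 88.8 ± 21.5 CPM (0.19, SE 0.25). These desaturase genes lie on chromosome 19 of GRCm38, at 44394455 to 44407879 and 44293674 to 44306864, and share 8.3% and 6.86% of their 31-base words with other genes, mostly of their own family.

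All 4 of the triglyceride synthesis genes tested had lower means in SS, and none passed the test. Dgat1, which adds the last acyl chain, was at 176, 115, 64.6 and 35.7 CPM in SA replicates 1 to 4 and at 132, 23.9, 34.6 and 20.5 CPM in SS replicates 1 to 4. The 3 leukocyte-rich libraries were the highest, from either genotype. The log2 fold change was -0.89 (SE 0.64, adjusted p = 0.789), -0.44 without SA replicate 1 and -1.89 without SS replicate 1. Dgat2, the second enzyme of that step, was at 20.1, 16.1, 3.82 and 2.43 CPM in SA mice and 18.4, 1.67, 2.93 and 7.13 CPM in SS (-0.49, SE 0.87), with the same 3 libraries on top. Gpd1, which makes glycerol 3-phosphate, ran from 1.14 to 28.4 CPM (-0.91, SE 0.91), and shares 11.6% of its words with the antisense gene Gm16537. Its value was -0.062 without SA replicate 2 and -1.70 without SS replicate 3. Agpat2, an acyltransferase that makes phosphatidic acid, was at 22.4 ± 13.8 and 14.5 ± 4.30 CPM (-0.63, SE 0.47). With the leukocyte covariate the values were 0.19 for Dgat1, 1.02 for Dgat2, 0.89 for Gpd1 and -0.073 for Agpat2, so that the first 3 had the opposite sign.

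Of the perilipins, which coat lipid droplets, Plin2 and Plin3 were read in every library. Plin2, the form found in most cells, was at 49.3, 51.6, 20.4 and 24.1 CPM in SA and at 81.8, 18.9, 12.4 and 32.4 CPM in SS (0.0023, SE 0.56). The leukocyte-rich libraries were again the top 3. Plin3 was at 5.08 to 16.2 CPM (-0.35, SE 0.50) and Plin5, the form of oxidative tissues, at no more than 0.916 CPM (-0.44, SE 1.54). Plin4, an adipocyte form, was at 2.33, 0.973, 3.88 and 0.957 CPM in SA and at 5.39, 3.84, 1.20 and 13.8 CPM in SS. SS replicate 4 was 2.56 times the next library, and the log2 fold change of 1.57 (SE 0.88, adjusted p = 0.752) was 0.77 without it. The lipases that empty the droplet showed mixed signs: Pnpla2, which starts the process, was at 15.3 ± 5.19 and 18.9 ± 11.9 CPM (0.31, SE 0.49, and -0.17 without SS replicate 4), hormone-sensitive lipase Lipe at 8.99 ± 4.78 and 6.99 ± 6.64 CPM (-0.36, SE 0.70), and monoglyceride lipase Mgll at 46.8 ± 19.9 and 33.2 ± 21.7 CPM (-0.50, SE 0.50). Lipe shares 918 exon bases with 4732471J01Rik on the opposite strand.

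SS replicate 4 alone combined several genes of the lipid-filled adipocyte. Plin1 had 861 counts in that library, or 27.8 CPM, 80 counts (2.94 CPM) in SA replicate 4 and 0 in the other 6. Cidec had 109 counts, or 3.51 CPM, in SS replicate 4 and 0 in the other 7. Neither passed the low-count filter, and with no filter edgeR gave adjusted p-values of 0.691 for Plin1 and 0.484 for Cidec. Of the 35 genes tested, 6 were more than 1.5 times as high in SS replicate 4 as in any other library: Lpl, Cd36, Fabp4, Fabp5, Plin4 and Pnpla2. This is 17.1%, against 2.48% of all genes tested, a count made after these values were seen. The adipocyte genes Lep, Cfd and Retn were at 0, 0.129 and 0.774 CPM there, and Adipoq, at 543 CPM, was below its level in SS replicate 2.

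**Figure D3:**
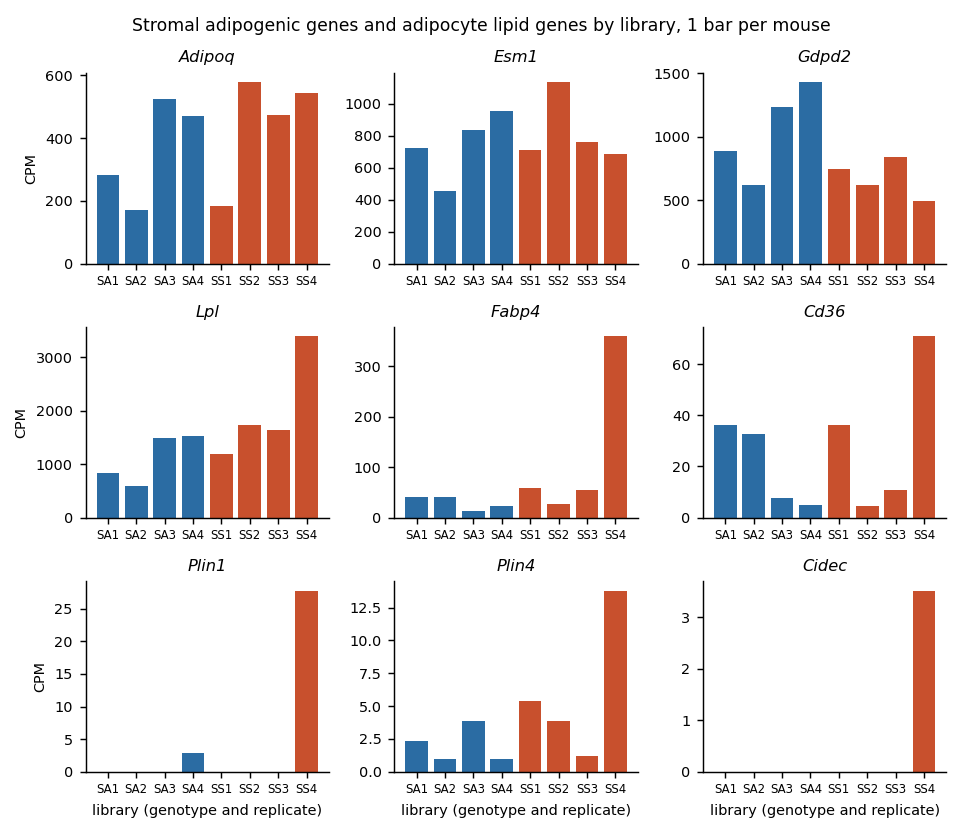
Bars give the CPM of 9 genes in each of the 8 libraries, on axes that start at 0, blue for SA and red for SS. Fabp4, Plin1, Plin4, Cidec, Lpl and Cd36 are highest in SS replicate 4, while Adipoq, Esm1 and Gdpd2 are not.

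Vessel cells also make Fabp4 and Cd36, and the markers of such cells were measured in the same libraries. The summed level of 15 endothelial genes (SS against SA, exact permutation p = 0.886, adjusted p = 0.886) was 34.1 CPM in SS replicate 4, against 24.8 to 208 CPM over all libraries, with Pecam1 at 1.35, Kdr at 0.161 and Cdh5 at 0.903 CPM. Endothelial sums were highest in SS replicate 1 (208 CPM), SA replicate 1 (130 CPM) and SA replicate 2 (82.2 CPM). Genes of pericytes and smooth muscle, 10 in all, summed to 6599 CPM in SS replicate 4, to 1312 to 1839 CPM in the other SS libraries and to 673 to 860 CPM in SA (exact permutation p = 0.0286, the smallest that 4 against 4 can give, adjusted p = 0.171 over 12 lists). Their defining marker Rgs5 was at 371, 459, 364 and 192 CPM in SA and at 932, 725, 1088 and 4998 CPM in SS (2.48, SE 0.60, adjusted p = 0.520 by edgeR and 0.00261 by DESeq2), and its genotypes did not overlap. Rgs5 made up most of the pericyte and smooth muscle sum in every SS library, and the sum without Rgs5 was not tested. The part of these cells in the lipid genes of SS replicate 4 was not tested. Its leukocyte sum, 352 CPM, was the lowest of the 8.

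Some genes stood apart in the leukocyte-rich libraries of both genotypes. In 5 of the 35 genes tested, SA replicates 1 and 2 and SS replicate 1 were the 3 highest libraries: Adipor1, Acsl1, Dgat1, Dgat2 and Plin2. In 4 they were the 3 lowest, namely Zfp423, Adipoq, Apoe and Lpl. Those shares are 14.3% and 11.4%, against 8.05% and 6.23% of all genes tested. The 14 macrophage genes, of cells that can express Apoe, Lpl, Cd36 and Plin2, summed to 3920, 4491 and 3225 CPM in those 3 libraries and to 561 to 2190 CPM in the other 5, with Clec4f at 0 in all 8 (SS against SA, exact permutation p = 0.314, adjusted p = 0.514). Lyz2, a lysozyme gene that neutrophils also express, made up 39.4% to 87.0% of that sum. Without Lyz2 the sum was highest in SS replicate 3, at 1200 CPM, against 510, 841 and 708 CPM in the 3 libraries. The defining marker Adgre1 was likewise highest in SS replicate 3, at 63.5 CPM, and lower in SA replicate 1 (16.3 CPM) than in SS replicates 2 and 4 (22.7 and 17.1 CPM). Of the 14 macrophage genes, 9 had their highest level in SS replicate 3. Neutrophil genes, 15 in all, summed to 17093 to 35131 CPM in the 3 libraries and 1382 to 11277 CPM in the others, with the defining marker Ngp at 104 to 4934 CPM over all 8 (exact permutation p = 0.200, adjusted p = 0.457). The part of macrophages and of neutrophils in these levels was not tested.

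**Figure D4:**
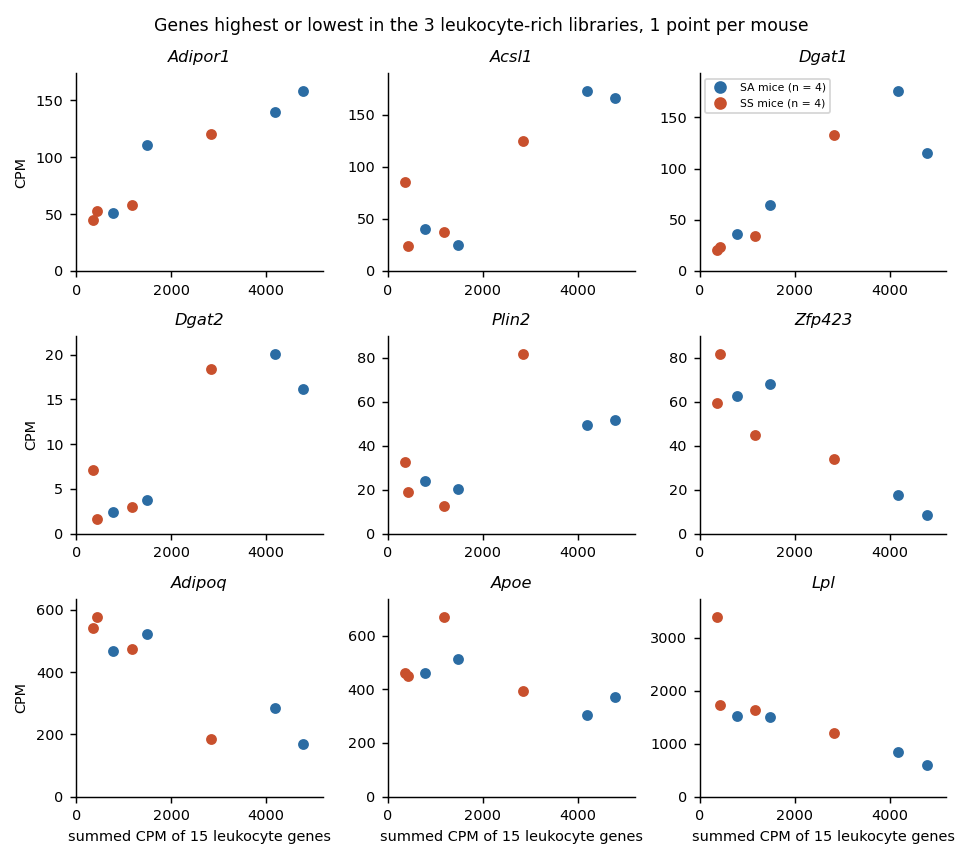
CPM of 9 genes against the summed CPM of 15 leukocyte genes, 1 point per mouse, blue for SA and red for SS. The genes were picked from the 35 tested because the 3 leukocyte-rich libraries were their highest or lowest, which fixed the pattern. Adipor1, Acsl1, Dgat1, Dgat2 and Plin2 are highest in the 3 libraries at 2836 CPM or more, and Zfp423, Adipoq, Apoe and Lpl are lowest there.

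Leaving out those 3 libraries gave 2 SA and 3 SS mice, with 0 genes called. Pparg, Lpl and Gdpd2 then had log2 fold changes of 0.83, 0.57 and -1.03, and Fabp4 and Cd36, led by SS replicate 4, of 3.01 and 2.18. Adipoq was at 0.10, and the triglyceride genes Dgat1, Dgat2 and Gpd1 at -0.93, 0.33 and 1.62. Dgat2, Gpd1, Acsl1 (0.58), Zfp423 (-0.082), Esm1 (-0.059), Fasn (-0.059), Scd1 (-0.27) and Plin2 (-0.065) had the opposite sign from the comparison of all 8 libraries.

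The rest of the pathway held no call either. In 5 further lists, with 84 genes in all and 75 tested, 0 genes passed the edgeR threshold and 0 that of DESeq2, and 7 had an unadjusted p under 0.05 (9.33%, against 6.98% of all genes). Genotypes did not overlap for 3 of the 75 (Ppara, Rxrb and Slc27a4, or 4.0%, against 3.91%), and 44 had a value above 0 (58.7%). Regulators that favour adipogenesis had a median log2 fold change of 0.12 (13 of 23 above 0). Ppara, a receptor of fatty acid burning, was at no more than 0.331 CPM in SA and at 0.688 to 2.54 CPM in SS, and its genotypes did not overlap (3.69, SE 1.34, adjusted p = 0.695). Stat5a, a cytokine signal transducer, was at 103, 26.9, 91.2 and 95.2 CPM in SA mice and 32.7 to 38.5 CPM in SS (-1.19, SE 0.37, adjusted p = 0.680). SA replicate 2 was the single SA library below the SS range.

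Restraints on adipogenesis had a median of -0.22 (4 of 9 above 0), which was 0.19 with the replicate number as a block and 0.12 without the 3 leukocyte-rich libraries. The 2 genes of smallest p were the zinc finger factor gene Klf2 (-0.87, SE 0.38) and Wnt10b (-2.01, SE 1.51), a Wnt ligand. Wnt10b had 151 counts in SA replicate 3 (5.05 CPM) and at most 31 in any other library, and without SA replicate 3 its value turned to 0.15. In fatty acid uptake and binding the median was 0.20 (7 of 12 above 0). Slc27a4, a fatty acid transport protein, was at 25.5, 45.4, 18.6 and 23.9 CPM in SA mice and 8.42, 13.3, 10.95 and 11.6 CPM in SS, and its genotypes did not overlap (-1.35, SE 0.37, adjusted p = 0.604). Cav1, caveolin 1, stood at 22.3 CPM in SS replicate 1 and more than that, 56.7 CPM, in SS replicate 4, against 5.92 CPM or less elsewhere (2.85, SE 0.97, and 1.75 without SS replicate 4). Lipogenesis control and supply had a median of 0.17 (11 of 14 above 0), with Mbtps1, the protease that activates SREBP, at 0.57 (SE 0.31) and Slc25a1, the citrate carrier, at 0.46 (SE 0.42). Triglyceride storage and lipolysis had a median of 0.12 (9 of 17 above 0), with the acyltransferase Agpat3 at 0.73 (SE 0.29) and the glycerol phosphate dehydrogenase Gpd1l at -0.70 (SE 0.35).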

How the data were processed

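RNA sequencing counts of sorted marrow stromal cells were analysed for 8 mice, 4 per genotype, each given in the labels as 2 lanes (16 samples) and in the table as 1 column. The table that the authors deposited holds unnormalized read counts for each gene symbol. The tools bcl2fastq, STAR, featureCounts and DESeq2 and the builds mm10 and GRCm38 are named without roles or versions, per the submitters' processing notes. The sources used here give no annotation or strand setting, so that reads of overlapping genes cannot be separated. Titles number the mice within a genotype. If these are not separate animals, the p-values cover only how far these libraries spread. The deposited table of normalized values was not used.

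The 42 genes were matched by symbol. The test was that of edgeR 4.0.16 (R 4.3.3) on the counts of all genes (filterByExpr by genotype, TMM, robust quasi-likelihood F test, Benjamini-Hochberg over 17316 genes, threshold 0.05), and 35 of the 42 passed the filter. The filter keeps a gene that is high enough in 4 libraries of either genotype. Totals were 24797857 to 31117007 counts, and CPM uses TMM-scaled totals of 26598162 to 31012177. The SE is the fold change over the square root of F. Floors of 3 counts cover counting error only. Exon lengths, positions, overlaps and the share of 31-base words found in other genes came from GENCODE M21 on GRCm38, and promoter windows from RefSeq (GRCm38.p6). Summed CPM of 12 marker lists was set between genotypes against its 70 arrangements (two-sided exact permutation test), which cannot give a p below 0.0286.

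Alternatives were DESeq2 1.42.0 on the same genes, limma-voom (limma 3.58.1), RLE and upper quartile scaling, no low-count filter, the replicate number as a block, the mean log2 CPM of 15 leukocyte genes as a covariate, the 3 leukocyte-rich libraries left out, and each mouse left out. Same-numbered mice had correlations of 0.222, -0.15, -0.0201 and 0.143 between their deviations from the genotype means, so the numbers were not taken as pairs. The scripts were tested on simulated counts. The 42 genes, the pathway and marker lists and the alternatives were chosen with earlier results of these data known. Named are all 42 genes, the 2 genes of smallest p in each of 5 pathway lists, genes that check the sort, and the first gene, with those at 0, of each marker list; the first genes of lists no result is set beside are not printed. Other genes named were chosen after their values were seen.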

Additional observations from a re-analysis of the deposited data

Results flagged for a closer look

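In 77 groups of 4 libraries with any spread, 9 had their highest library farther from the others than Dixon's critical value for the gap over the range, where chance flags about 1 in 20 groups. In 5 of the 9 the other 3 libraries were at 0, so that any count passes, and of the 72 groups without this feature 4 passed (5.56%), near the share chance gives. SS replicate 4 was the highest library in 1 of those 4, for Fabp4. This fatty acid carrier was at 359 CPM there against 57.9 CPM in the next SS library. The droplet genes Plin1 and Cidec were at 27.8 and 3.51 CPM in SS replicate 4 and at 0 in the other SS libraries. Pck1, with 1 count, was at 0.0322 CPM there.

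In SA, Plin1 was at 2.94 CPM in replicate 4, Retn, which encodes resistin, at 0.167 CPM in replicate 3, and both were at 0 in the other SA libraries. Fabp5 was at 6.04 CPM in SA replicate 2 against 3.16 CPM in the next. In SS, the proteoglycan gene Esm1 was at 1135 CPM in replicate 2 against 762 CPM, and the acyltransferase gene Dgat1 at 132 CPM in replicate 1 against 34.6 CPM.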

How the results depend on the processing

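No gene of the 42 passed a threshold in any of 16 alternatives, and the lowest adjusted p was 0.128 (Fabp4, DESeq2). Of the 35 tested, 18 kept their sign in all 16, as did 9 of the 10 pathway genes. Genes called numbered 128 by DESeq2, 5 with no low-count filter and 0 to 1 with each mouse left out (1 without SS replicate 1), against 0. Members at an unadjusted p under 0.05 were 7 with no filter, 1 with the leukocyte covariate and 1 to 5 with each mouse left out. The median of the restraints was 0.051 by limma-voom, 0.19 with the replicate block, 0.068 with the covariate, 0.12 without the 3 leukocyte-rich libraries and -0.34 to 0.031 with each mouse left out, and that of triglyceride storage was -0.075 (without SA replicate 4) to 0.16 with each mouse left out and up to 0.24 (with the covariate) in the others.

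The sign turned with the leukocyte covariate for Cebpd (0.0032), Zfp423 (-0.22), Adipoq (-0.50), Esm1 (-0.14), Acsl1 (0.59), Scd1 (-0.42), Gpd1 (0.89), Dgat1 (0.19) and Dgat2 (1.02). It turned without the 3 libraries for Zfp423 (-0.082), Esm1 (-0.059), Acsl1 (0.58), Fasn (-0.059), Scd1 (-0.27), Gpd1 (1.62), Dgat2 (0.33) and Plin2 (-0.065). It also turned for Cebpd by upper quartile scaling (0.0035), for Plin2 by DESeq2 (-0.0099) and RLE (-0.0099), and by limma-voom for Klf15 (0.16), Scd1 (-0.017) and Plin2 (-0.24). With the replicate block it turned for Klf15 (0.15), Scd1 (-0.026) and Plin2 (-0.24), and 0 genes were called. Only replicate 1 correlated best with its own number. With each mouse left out, ranges that crossed 0 were -0.32 to 0.15 for Cebpd, -0.28 to 0.43 for Klf15, -0.30 to 0.014 for Srebf1, -0.043 to 0.30 for Esm1, -0.25 to 1.0 for Cd36, -0.51 to 0.018 for Acaca, -0.0069 to 0.31 for Fasn, -0.36 to 0.30 for Scd1, -1.44 to 0.0073 for Dgat2, -0.77 to 0.29 for Plin2, -0.17 to 0.56 for Pnpla2, -1.26 to 0.023 for Lipe and -3.55 to 0.15 for Wnt10b. The cause was not tested. Depth limits Cfd, Retn, Pck1 and Plin5, each under 1 CPM in every library.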

Other observations

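Brown and beige fat genes were read beside the white fat genes. A list of 8 brown adipocyte markers, which holds Cidea, summed to 22.7 ± 13.6 CPM (SD, n = 4) in SA and 123 ± 72.3 CPM in SS (exact permutation p = 0.0571, adjusted p = 0.229 over 12 lists). Its defining gene Ucp1, the uncoupling protein of brown fat, and Cidea had 0 counts in all 8 libraries. Dio2, a deiodinase that activates thyroid hormone, was named after its values were seen. It made up most of the mean sum in each genotype, but 2.34 of 10.4 CPM in SA replicate 3. It was at 18.6, 41.3, 2.34 and 11.6 CPM in SA replicates 1 to 4 and at 25.4, 151, 88.8 and 150 CPM in SS replicates 1 to 4 (log2 fold change 2.49, SE 0.76, adjusted p = 0.670 by edgeR and 0.0394 by DESeq2). SS replicate 1 lay within the SA range and the other SS libraries above it. Prdm16, a factor that favours brown over white fat, was also named after its values were seen. It was at 25.7 and 30.9 CPM in SS replicates 2 and 4 and at no more than 8.63 CPM elsewhere (2.48, SE 0.96, adjusted p = 0.695 by edgeR and 0.194 by DESeq2).

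The mature adipocyte list, of which 6 of 11 are among the 42 genes, summed to 413 ± 195 CPM in SA and 521 ± 200 CPM in SS (exact permutation p = 0.429, adjusted p = 0.549). Adipoq, its defining gene, made up most of that sum in every library, and Lep was at 0. Stromal cell genes, led by Cxcl12, summed to 24626 ± 8764 and 26314 ± 4770 CPM (exact permutation test, adjusted p = 0.886). Osteoblast genes summed to 15805 ± 9797 and 11894 ± 5512 CPM (exact permutation p = 0.457, adjusted p = 0.549). B cell genes summed to 73.4 to 328 CPM in SA and 4.61 to 71.8 CPM in SS, without overlap (exact permutation p = 0.0286, adjusted p = 0.171). Erythroid genes summed to 1427 ± 407 and 1098 ± 499 CPM (exact permutation p = 0.343, adjusted p = 0.514), and megakaryocyte genes to 173 ± 185 and 16.1 ± 14.4 CPM (exact permutation p = 0.229, adjusted p = 0.457).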
